A study of Mus musculus with 15 samples.

Results

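Secretoglobin, exocrine gland–secreted peptide (ESP), odorant-binding protein and related tear protein genes were followed through RNA-Seq of mouse conjunctival tissue. The members were the genes whose symbol begins with *Scgb*, is *Esp* followed by digits only, begins with *Obp* and a digit, or is *Lcn11*, *Mucl1* or *Mucl2*. This rule, which uses symbols and no measured value, found 91 of the 55487 genes in the count table: 33 *Scgb1* genes, 34 *Scgb2*, 2 *Scgb3*, 15 *Esp*, 4 *Obp*, *Lcn11* and 2 *Mucl* genes. Of the 91, 56 were annotated as protein coding and 35 as pseudogenes.

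All 15 libraries came from the conjunctiva of WT mice of the strain labelled BALC/c, which the methods describe as female BALB/c mice of 9 to 12 weeks. Every mouse, controls included, had been sensitized on the ear skin with OVA and with MC903, a daily 2.5 nmol of the vitamin D analog calcipotriol, which causes atopic dermatitis–like inflammation, so that no group lacked skin sensitization. The PBS group (n = 5) then received PBS in the eye, the challenge being given daily for 7 days in a model read out on day 24, and its labels name no antibody. The isotype group (n = 5) was challenged with OVA and given isotype control antibody, and the anti–IL-4Rα group (n = 5) was challenged with OVA and given an antibody against IL-4Rα, the receptor chain through which IL-4 and IL-13 signal, each at 25 mg/kg. The groups asked how OVA challenge, given here with isotype antibody, changes the tissue and how blocking IL-4Rα changes the challenged tissue.

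These proteins are mostly made by exocrine glands and carried onto the eye in tears. Secretoglobins are small secreted proteins that form dimers; the mouse androgen-binding proteins combine an alpha subunit, encoded by *Scgb1b* genes, with a beta or gamma subunit, encoded by *Scgb2b* genes, and the 2 gene groups lie side by side on chromosome 7. ESP peptides are pheromones of mouse tears and are sensed by the vomeronasal organ. Odorant-binding proteins and LCN11 are lipocalins, a family that carries small hydrophobic molecules, and *Mucl1* and *Mucl2* encode mucin-like secreted proteins.

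Library totals ran from 48622246 to 87745024 estimated counts. CPM here are counts per 1000000 after TMM normalization. Levels of different genes are compared in CPM per kilobase of exon, and ratios of counts between 2 genes are used to compare libraries. A gene was tested where 5 or more libraries held 10 or more counts (19006 of 55487 genes), by the two-sided quasi-likelihood test of edgeR; p-values were adjusted over all genes tested by the Benjamini-Hochberg method, and a gene was called at an adjusted p under 0.05. The labelled tissue was checked first: the 8 marker genes of conjunctival and ocular surface epithelium summed to between 8456 and 14921 CPM in every library. Markers of lacrimal gland acini were present as well, at very unequal levels. *Pip*, a secretory protein of lacrimal acini, had 3 counts in PBS replicate 1, 5 in isotype replicate 2 and 106 in PBS replicate 3, against 277050 in anti–IL-4Rα replicate 4. PBS replicates 1 and 3, isotype replicate 2 and anti–IL-4Rα replicate 3 were the 4 libraries lowest in *Pip*, each under 100 CPM. Each of the 3 comparisons is also given without these 4.

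Several of the secretoglobin genes are close copies, and this bears on what their counts can mean. Of all stretches of 90 bases in their GENCODE M21 transcripts, 43.4% in *Scgb1b20* (chromosome 7, 33373234 to 33374559, plus strand, GRCm38), 58.5% in *Scgb1b7* (chromosome 7, 31712665 to 31713978, plus strand) and 100% in *Scgb1b29* occurred unchanged in the transcripts of another gene. The share was 60.7% for *Obp1b* (with the predicted gene *Gm14743*), 26.3% for *Scgb2b20*, 13.8% for *Esp6* (with *Gm44501*, whose exons overlap it), 13.4% for *Scgb2b7*, 7.58% for *Scgb1b3* and under 3% for *Esp15*, *Esp16* and *Esp18*, and 0% for the other 19 of the 30 genes named below. The authors mapped reads uniquely, and how reads from shared stretches were treated is not stated, so counts of these copies are uncertain relative to each other. *Scgb1b2* and *Scgb2b2* overlap on opposite strands. The library kit keeps strand, but whether the counting used it is not given in the sources used here.

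Of the 91 genes, 57 had a count in at least 1 library and 34 had none in any; 28 of these 34 were pseudogenes. The 33 that passed the filter and were tested comprised 6 *Scgb1*, 10 *Scgb2*, 12 *Esp*, 2 *Obp*, *Lcn11* and both *Mucl* genes, and 2 of them were pseudogenes (*Scgb2b1* and *Scgb2b4-ps*). Another 24 had counts but stayed below the filter. Among the genes with nearly no counts were *Esp1*, which encodes a pheromone of male tears (at most 0.371 CPM, in female mice), *Esp22*, which encodes a pheromone of juvenile mice (0 counts in all 15 libraries), *Obp2a* and *Obp2b*, and both *Scgb3* genes. A mean of at least 1 CPM over the 15 libraries was reached by 29 genes and at least 100 CPM by 17. Counts were concentrated: *Mucl2*, *Obp1a*, *Scgb1b2*, *Obp1b* and *Scgb2b2* held 86.5% of all counts assigned to the 91 genes.

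Per kilobase of exon the order of mean levels began with *Obp1a* (23214 CPM per kilobase), *Scgb1b2* (20361), *Mucl2* (19469), *Scgb2b2* (12329) and *Obp1b* (9940.0), followed by *Scgb2b24* (4886), *Esp6* (1923), *Esp15* (1894) and *Scgb1b20* (1367). Neighbours in this order were not tested against each other. In every group, their means differed by less than the SD of the higher of both over the 5 libraries. That SD is the spread of level between libraries, in which these genes rise and fall together, so it does not decide the order. In the *Scgb3* family the leading gene *Scgb3a1* reached 0.168 CPM per kilobase.

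The summed level of the 91 genes differed by orders of magnitude between libraries of the same group. It was 36.2, 6027, 137, 12843 and 90296 CPM in PBS replicates 1 to 5, 56973, 37.5, 10704, 49471 and 7684 CPM in the isotype replicates, and 199499, 108247, 2020.1, 268954 and 255750.0 CPM in the anti–IL-4Rα replicates. Of the 5 anti–IL-4Rα libraries 4 lay above every PBS and isotype library, and the fifth, replicate 3, lay below 3 PBS and 4 isotype libraries. As a share of the library the genes took 0.00391% to 8.84% of all counts in the PBS group (median 0.643%), 0.00418% to 5.73% in the isotype group (median 1.14%) and 0.220% to 21.6% with anti–IL-4Rα (median 17.3%). The 12 lacrimal acinar markers summed to between 236 and 3814 CPM in PBS libraries, 238 and 2672 CPM in isotype libraries and 358 and 11134 CPM in anti–IL-4Rα libraries, and all 15 libraries had the same rank by *Pip* as by the sum of the tear protein genes. Among those markers *Prol1*, *Dcpp2* and *Dcpp3* were listed at 0 in every library and 8 of the 12 passed the filter. The epithelial marker sum was lower in anti–IL-4Rα replicates 1, 2, 4 and 5 (8456 to 9622 CPM) than in any other library (10140.5 CPM or more). Of its 8 genes, 2 were called higher for anti–IL-4Rα against isotype, *Krt12*, a keratin of the cornea (log2 fold change 3.55, SE 0.96, adjusted p = 0.0293), and *Pax6*, a transcription factor of the eye (0.43, SE 0.13, adjusted p = 0.0390), and 1 lower, *Krt14*, a keratin of basal epithelial cells (−0.75, SE 0.11, adjusted p = 0.00243); their part in the levels of the tear protein genes was not tested. In bulk tissue fewer cells of a type and less RNA per cell cannot be told apart, and whether the amount of gland tissue in a sample accounts for these levels was not tested.

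**Figure D1:**
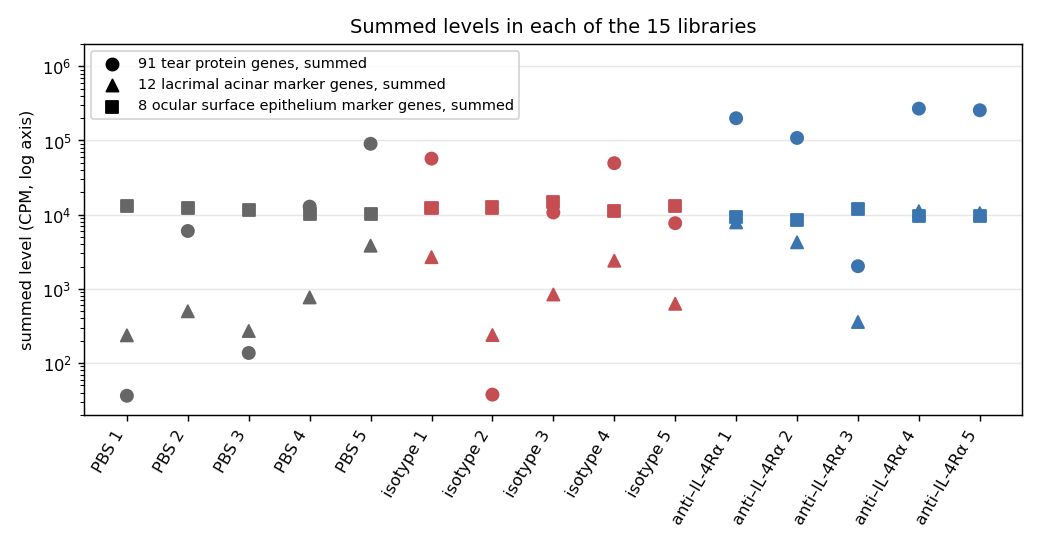
Summed levels (CPM, log axis) of the 91 tear protein genes (circles), 12 lacrimal acinar marker genes (triangles) and 8 ocular surface epithelium marker genes (squares) in each library; gray, PBS; red, isotype; blue, anti–IL-4Rα. The tear protein sum runs from 36.2 to 268954 CPM and is highest in the 5 libraries where the acinar markers are highest, while the epithelial markers run from 8456 to 14921 CPM and are lowest in anti–IL-4Rα replicates 1, 2, 4 and 5.

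*Obp1a* (ENSMUSG00000067684, chromosome X, 78085505 to 78091374) and *Obp1b* (ENSMUSG00000067679, chromosome X, 78186777 to 78192292) encode the nasal and tear odorant-binding lipocalins. *Obp1a* was at 0.0137, 1581, 22.8, 3404 and 23999.8 CPM in PBS replicates 1 to 5, at 15099, 0.287, 2791, 11433 and 1817 CPM in the isotype group, and at 51556, 24044, 455, 65833 and 61559.9 CPM in the anti–IL-4Rα group. Anti–IL-4Rα replicates 1, 2, 4 and 5 exceeded every library of the other groups, and replicate 3 fell among their low libraries. Anti–IL-4Rα against isotype gave 2.71 on the log2 scale with an SE of 2.06, which did not pass the test (adjusted p = 0.372), and that of isotype against PBS was 0.10 (SE 1.94, adjusted p = 0.978). *Obp1b* had 0, 667, 8.56, 982 and 7483 CPM in PBS replicates 1 to 5, 4436, 0.205, 893, 6673 and 744 CPM in the isotype group and 22032, 11774, 249, 30430.3 and 32461 CPM in the anti–IL-4Rα group. Its levels were high and low in the same libraries as those of *Obp1a*, and its log2 fold change for anti–IL-4Rα against isotype was 2.93 (SE 2.03, adjusted p = 0.325). Counts of *Gm14743*, with which it shares sequence, ran from 0 to 96983 in the same libraries. In the 13 libraries with at least 100 *Pip* counts, *Obp1b* had 28.9% to 58.4% as many counts as *Obp1a*.

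*Mucl2* (ENSMUSG00000036925, chromosome 15, 103895855 to 103899312), which encodes a mucin-like secreted protein, was the third gene per kilobase. It stood at 0.0275, 1551, 26.3, 3407 and 23948.5 CPM in PBS replicates 1 to 5, at 15161, 0.348, 2981, 13303 and 2042 CPM in the isotype group and at 59229.6, 31193, 579, 77349.6 and 74699.8 CPM in the anti–IL-4Rα group. The pattern over libraries was that of *Obp1a*, and the log2 fold change of anti–IL-4Rα against isotype was 2.86 (SE 2.05, adjusted p = 0.342).

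Among the androgen-binding protein subunits the alpha gene *Scgb1b2* (ENSMUSG00000062556, chromosome 7, 31290519 to 31291821) was highest. Its levels were 1.70, 785, 13.9, 1769 and 12599.5 CPM in PBS replicates 1 to 5, 7948, 0.962, 1443, 5459.7 and 978 CPM in the isotype group, and 23537, 13020.4, 252, 32630.3 and 29058 CPM in the anti–IL-4Rα group. The beta or gamma gene *Scgb2b2* (ENSMUSG00000036521) had 0.481, 672, 12.1, 1531 and 10918 CPM in the PBS libraries, 7050.4, 0.614, 1259, 4587 and 811 CPM in those given isotype antibody and 19684, 10474, 198, 26776 and 24396 CPM in the anti–IL-4Rα group. In *Scgb1b2* the groups overlapped through anti–IL-4Rα replicate 3, and in *Scgb2b2* anti–IL-4Rα replicate 2 also lay below PBS replicate 5. The log2 fold changes of anti–IL-4Rα against isotype were 2.64 (SE 1.84, adjusted p = 0.328) and 2.57 (SE 1.89, adjusted p = 0.353).

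*Scgb2b24* (ENSMUSG00000046438, chromosome 7, 33737190 to 33739312) was at 0.0962, 205, 2.67, 433 and 2989 CPM in PBS replicates 1 to 5, at 1716, 0.0921, 322, 1984 and 344 CPM in the isotype group and at 6028, 4860.3, 76.8, 10409.7 and 8963 CPM in the anti–IL-4Rα group (log2 fold change of anti–IL-4Rα against isotype 2.80, SE 1.91, adjusted p = 0.319). *Scgb1b20* (ENSMUSG00000094978) had 0, 33.4, 0.142, 57.5 and 386 CPM in the PBS libraries, 241, 0.0102, 29.3, 719 and 123 CPM in those given isotype antibody and 1086, 1931, 13.2, 1809 and 2206 CPM in the anti–IL-4Rα group (2.66, SE 1.88, adjusted p = 0.334). In *Scgb1b20* anti–IL-4Rα replicate 2 was among the highest libraries, whereas in *Scgb2b24* it was the fourth of its group. *Scgb2b20*, *Scgb1b7* and *Scgb2b7* had means of 490.1, 334 and 210.1 CPM over the 15 libraries, and *Scgb1b24*, the alpha gene next to *Scgb2b24*, had 25.2 CPM.

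In 4 pairs, the alpha and beta or gamma genes that carry the same number were counted in nearly fixed proportion, except in libraries with few counts. In libraries where both had at least 50 counts, *Scgb1b20* had 0.985 to 1.32 counts per count of *Scgb2b20* (median 1.21, 12 libraries), genes that lie 6911 bases apart on opposite strands. The ratio was 1.37 to 1.83 for *Scgb1b7* and *Scgb2b7* (median 1.56, 12 libraries), which lie 6907 bases apart, and 1.13 to 1.57 for the overlapping genes *Scgb1b2* and *Scgb2b2* (median 1.19, 14 libraries). For *Scgb1b24* and *Scgb2b24* the proportion was far lower, 0.00839 to 0.0137 counts of the alpha gene per count of the other (median 0.0101, 11 libraries, 4486 bases apart). Per kilobase the median ratios were 1.499, 3.49, 1.65 and 0.0190 in the same order. Another pair, *Scgb1b3* and *Scgb2b3*, reached 50 counts of both genes in no library; in anti–IL-4Rα replicate 2, where both were highest, they had 1262 and 36 counts. In libraries below that minimum the proportions departed from these ranges. *Scgb2b20* kept 41, 80 and 34 counts in PBS replicates 1 and 3 and isotype replicate 2, where *Scgb1b20* had 0, 8 and 1. In the same libraries *Scgb2b7* had 27, 46 and 15 counts and *Scgb1b7* had 3, 12 and 2. *Scgb1b2* had 124 counts in PBS replicate 1, where *Scgb2b2* had 35.

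The other secretoglobins of measurable level were *Scgb2a2*, a relative of the human mammaglobin genes, *Scgb1b3*, *Scgb1b29* and *Scgb1a1*. *Scgb2a2* ran up to 683 CPM in PBS libraries and 535 CPM in isotype libraries, each from 0, and from 6.46 to 1648 CPM in anti–IL-4Rα libraries (log2 fold change of anti–IL-4Rα against isotype 2.33, SE 1.87, adjusted p = 0.396). *Scgb1b29* had 520, 192 and 440 counts in anti–IL-4Rα replicates 2, 4 and 5 and 0 counts in each of the other 12 libraries, and was not tested because it passed the minimum in only 3 libraries. Its whole transcript is shared with *Scgb1b7* and other copies, and *Scgb1b7* had 73502, 40579 and 58244 counts in those 3 libraries.

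Among the ESP genes *Esp15* (ENSMUSG00000095104, chromosome 17, 39640954 to 39645666) had 0.0412, 198, 2.81, 454 and 2999 CPM in PBS replicates 1 to 5, 1983, 0.113, 346, 1494 and 245 CPM in the isotype group and 6276, 3214, 62.5, 8446 and 7551 CPM in the anti–IL-4Rα group. *Esp6* (ENSMUSG00000092043, chromosome 17, 40561507 to 40565627) had 12.1, 116, 13.7, 266 and 1748 CPM in the PBS libraries, 1094, 28.2, 239, 863 and 154 CPM in those given isotype antibody and 3651, 1712, 48.5, 4809 and 4365 CPM in the anti–IL-4Rα group. Unlike *Esp15*, *Esp6* kept 883 and 2756 counts in PBS replicate 1 and isotype replicate 2, the libraries almost without *Pip*. Log2 fold changes of anti–IL-4Rα against isotype were 2.65 (SE 1.92, adjusted p = 0.346) for *Esp15* and 2.62 (SE 1.36, adjusted p = 0.196) for *Esp6*. The other *Esp* genes with a mean of at least 1 CPM were *Esp18* (540.2 CPM), *Esp31* (322), *Esp16* (182), *Esp36* (60.6), *Esp3* (38.01), *Esp4* (31.1), *Esp34* (10.4), *Esp23* (8.24), *Esp24* (1.69) and *Esp38* (1.39), given as means over the 15 libraries.

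*Lcn11* (ENSMUSG00000069080, chromosome 2, 25777017 to 25780279), the lipocalin of the set outside the *Obp* genes, had 0.0137, 10.9, 0.159, 29.3 and 249 CPM in PBS replicates 1 to 5, 208, 0, 58.8, 134 and 27.2 CPM in the isotype group and 525, 370.3, 5.35, 818 and 872 CPM in the anti–IL-4Rα group. Its log2 fold change of anti–IL-4Rα against isotype was 2.599 (SE 1.75, adjusted p = 0.311).

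**Figure D2:**
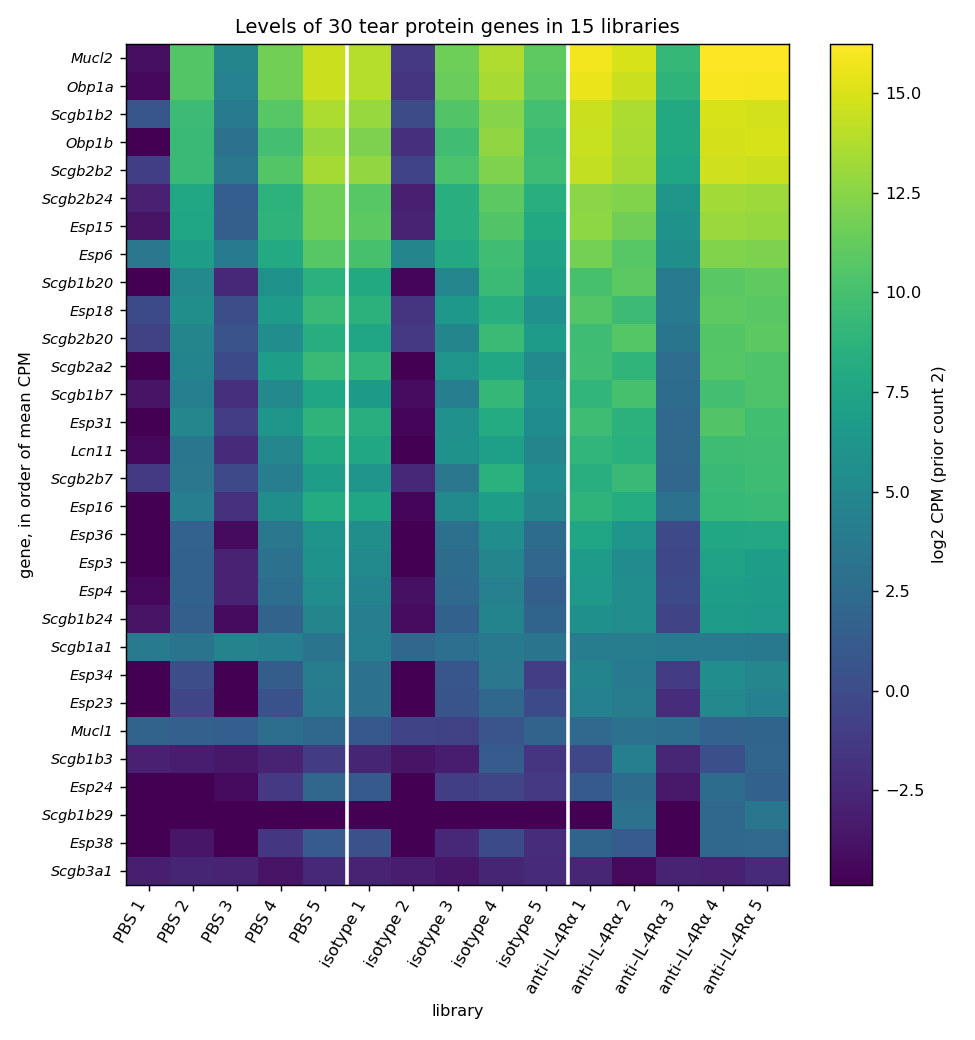
Log2 CPM (prior count 2) of 30 tear protein genes (rows, in order of mean CPM) in the 15 libraries (columns; white lines part the groups). Most rows are dark in PBS replicates 1 and 3 and isotype replicate 2 and bright in anti–IL-4Rα replicates 1, 2, 4 and 5, while Mucl1, Scgb1a1 and Scgb3a1 do not follow these libraries.

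The isotype and PBS groups differ in OVA challenge and in isotype antibody, and the effects of these cannot be told apart. For isotype against PBS, none of the 33 tear protein genes tested was called by edgeR as higher, beside 9.53% of all 19006 genes tested. None was called as lower, beside 7.49% (17.0% in either direction). No member's groups were free of overlap, beside 6.85% of all genes higher and 5.43% lower without overlap. A single gene, *Mucl1*, had an unadjusted p under 0.05, and DESeq2, voom with quality weights and the linear model on log2(FPKM + 1) each called it as lower. Over all genes, these called 1807 of 19006, 1746 of 19006 and 1704 of 18984 as lower. The median log2 fold change of the 33 was 0.14, that of all genes tested −0.01, and the single values ran from −1.30 to 1.93 with a median SE of 1.52, against a median SE of 0.11 over all genes. This median moved with single libraries and with the model. It was 2.31, with 29 of 33 positive, without PBS replicate 5, and −0.49, with 8 of 32 positive, without isotype replicate 1. It was 2.34 by voom with quality weights, 1.18 on log2(FPKM + 1) and 1.84 with a replicate block. Without the 4 libraries under 100 CPM of *Pip* it was −0.25, with 11 of 32 positive, and 0 members were called, beside 1588 of 18544 genes. The 33 include genes that passed the filter through the libraries where they are high, so the median describes those genes alone. The 5 largest values were those of *Scgb1b3* (1.93, SE 1.40, adjusted p = 0.363), *Scgb2b7* (1.77, SE 1.57, adjusted p = 0.464), *Scgb1b7* (1.70, SE 1.74, adjusted p = 0.533), *Scgb2b20* (1.46, SE 1.59, adjusted p = 0.562) and *Scgb1b20* (1.22, SE 1.79, adjusted p = 0.680). Of these, *Scgb1b20* and *Scgb1b7* were at 0.043 and −0.088 without isotype replicate 4 and at 3.29 and 3.53 without PBS replicate 5. Changes of several fold in these genes were not detectable with this spread between libraries.

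For IL-4Rα blockade, anti–IL-4Rα against isotype, 1 of the 33 was called higher, *Mucl1*, beside 6.73% of all genes tested, and 0 were called lower, beside 8.13% (14.9% in either direction). Of the 33, 3 had an unadjusted p under 0.05, and DESeq2 called *Mucl1* and *Scgb1b3* as higher, beside 1913 of all 19006 genes. The log2 fold changes of 31 of the 33 were positive, with a median of 2.57 (0.01 over all genes tested, of which 51.7% were positive) and a range of −0.43 to 3.13. No gene's groups were free of overlap in either direction, beside 2.35% of all genes higher and 4.96% lower without overlap. Most of the 33 genes rise and fall with the same libraries and are not independent of each other. Against the PBS group, edgeR called 0 of the 33 higher, beside 2.28% of all genes tested, or lower, beside 1.44% (3.72% in either direction). None was free of overlap, beside 2.98% higher and 3.12% lower, and 4 had an unadjusted p under 0.05. DESeq2 called 2, beside 1966 of all 19006 genes in either direction, and voom called 5, beside 2318. The median was 2.70, and the comparison shares the anti–IL-4Rα libraries with the one above. The median was 4.96 without PBS replicate 5, 5.86 by voom with quality weights, and 2.29 without the 4 libraries under 100 CPM of *Pip*. There 0 members were called, beside 1013 of 18544 genes.

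When the mean log2 CPM of 8 lacrimal acinar markers was added to the same model as a covariate, 4 of the 33 log2 fold changes of anti–IL-4Rα against isotype were positive. The median of the 33 was −0.58 and their range −1.31 to 1.59, and none passed the test (lowest adjusted p 0.0918, for *Mucl1*). Over all 19006 genes, 476 were called in that fit, beside 14.9% without the covariate. *Obp1a* was then at −0.59 (SE 0.93, adjusted p = 0.787), *Scgb1b2* at −0.58 (SE 0.58, adjusted p = 0.640), *Mucl2* at −0.39 (SE 0.92, adjusted p = 0.867) and *Esp31*, the lowest, at −1.31 (SE 0.46, adjusted p = 0.153). The score includes *Pip* and other secretory genes of the same gland, and it was itself highest in the anti–IL-4Rα group. Leaving out the 4 libraries with under 100 CPM of *Pip* (PBS replicates 1 and 3, isotype replicate 2 and anti–IL-4Rα replicate 3), a choice made after seeing the levels, gave log2 fold changes of 2.70 for *Obp1a* (adjusted p = 0.0707), 2.63 for *Scgb1b2* (adjusted p = 0.0740) and 2.85 for *Mucl2* (adjusted p = 0.0586). That fit called 0 members, beside 2906 of all 18544 genes tested in it, and left the median at 2.57.

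**Figure D3:**
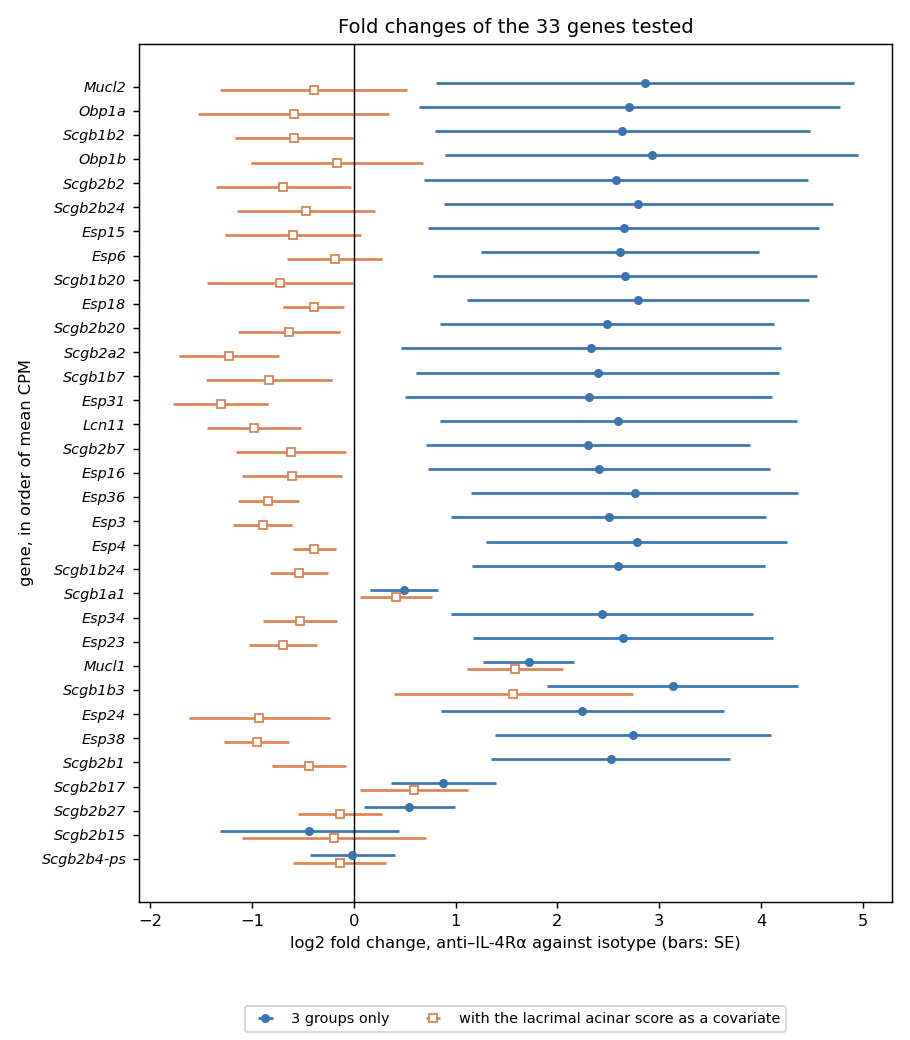
Log2 fold change of anti–IL-4Rα against isotype (x axis; bars, SE) for the 33 genes tested (rows, in order of mean CPM), from edgeR with the 3 groups only (filled circles) and with the lacrimal acinar score as a covariate (open squares). The median moves from 2.57 to −0.58, while Mucl1 stays at 1.72 and 1.59 and Scgb1a1 at 0.50 and 0.41.

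Many of the genes kept close to a fixed proportion to *Pip*. Over the 13 libraries with at least 100 *Pip* counts, *Obp1a* varied 2889-fold in CPM but had 7.64 to 12.2 counts per count of *Pip*, a 1.59-fold range. The corresponding range of the ratio was 1.49-fold for *Esp15*, 1.63-fold for *Mucl2*, 1.87-fold for *Scgb2b24*, 1.98-fold for *Obp1b*, 2.02-fold for *Scgb1b2* and 2.59-fold for *Lcn11*. None of the 30 genes named passed the adjustment for a difference in this ratio between groups in any of the 3 comparisons, and these ratios were chosen after the levels had been seen. The genes free of overlap are given as a description. *Mucl2* had 9.70, 9.34, 8.97 and 8.58 counts per *Pip* count in isotype replicates 1, 3, 4 and 5 and 12.3, 12.1, 12.9, 11.3 and 12.2 in the anti–IL-4Rα libraries, with no overlap, a difference of 0.41 in log2 ratio (p = 0.0159 in a two-sided exact permutation test, the least that 5 against 4 allows, and 0.159 once adjusted over the 30 genes named). *Esp18* and *Esp4* were also higher without overlap in that comparison, with differences of 0.33 and 0.34 and the same p, and 0 genes were lower; over all 19006 genes tested the ratio to *Pip* was free of overlap in 0.0158% higher and 0.0631% lower. The isotype libraries were also below the 4 PBS libraries for *Mucl2*, *Obp1a*, *Scgb1b2*, *Esp15*, *Esp6*, *Esp18* and *Esp4* (p = 0.0286 each in the same exact test, the least that 4 against 4 allows, and 0.122 once adjusted), and above them for 0 of the 30, beside 0.0947% lower and 0.0105% higher over all genes. Anti–IL-4Rα libraries were above the PBS libraries for *Scgb1b20* and *Lcn11* (differences of 1.22 and 0.54, p = 0.0159 each in the exact test and 0.190 once adjusted) and below them for 0 genes, beside 0.0158% higher and 0.0316% lower. The ratio of a gene whose level does not move with *Pip* varies with *Pip* itself, from 106 to 277050 counts in these libraries, so a low background share is built into this measure and nothing particular to the members is read from it.

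A second group of genes was not in fixed proportion to *Pip*. *Scgb1b20* had 0.485 and 0.518 counts per *Pip* count in isotype replicates 4 and 5 and 0.7498 in anti–IL-4Rα replicate 2, against 0.0755 to 0.361 in the other 10 libraries. *Scgb1b7* followed with 0.395, 0.241 and 0.430 in those libraries, against 0.0551 to 0.225 elsewhere, and their partners *Scgb2b20* (0.492, 0.449 and 0.617) and *Scgb2b7* (0.258, 0.175 and 0.268) were also high there, although PBS replicate 3, with 106 *Pip* counts, was higher still for both (0.755 and 0.434). *Esp6* varied 12.6-fold relative to *Pip* through that library alone, with 7.31 counts per *Pip* count there. In the others it had 0.582 to 1.08, so outside that library it kept close to *Pip*. *Scgb1b3*, another alpha subunit gene, was at 19.0 CPM in anti–IL-4Rα replicate 2, 4.04 CPM in replicate 5 and 2.41 CPM in isotype replicate 4, and at no more than 1.19 CPM elsewhere. *Sox10*, on the lacrimal acinar list, and *Elf5*, on the gland duct list, were also highest in anti–IL-4Rα replicate 2, at 80.9 and 108 CPM, followed by isotype replicate 4, at 30.5 and 44.1 CPM; their part in the result was not tested. The log2 fold change of *Scgb1b3* against PBS, 5.06 (SE 1.41, adjusted p = 0.0599), was the largest of the 33 and did not pass the test; without anti–IL-4Rα replicate 2 it was 3.31.

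**Figure D4:**
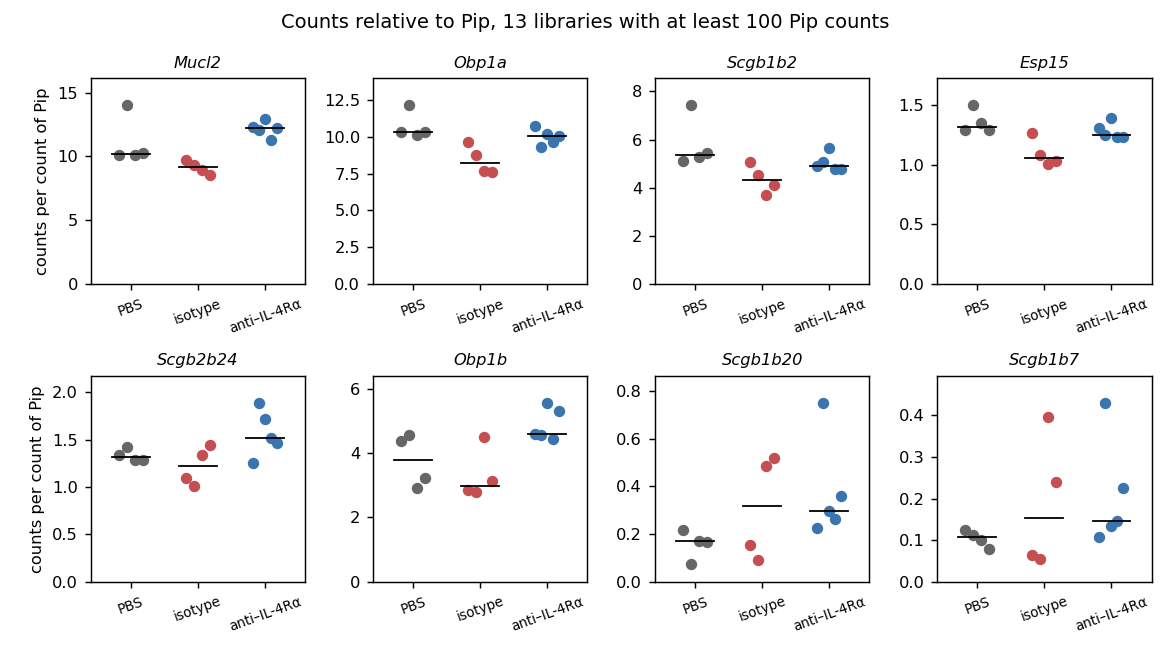
Counts of 8 genes per count of Pip (y axes, each from 0) in the 13 libraries with at least 100 Pip counts (4 PBS, 4 isotype, 5 anti–IL-4Rα); points are libraries and bars are group medians. Mucl2, Obp1a and Esp15 stay within a 1.63-fold range, whereas Scgb1b20 and Scgb1b7 spread 9.94-fold and 7.81-fold.

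*Mucl1* (ENSMUSG00000060311, chromosome 15, 103751919 to 103755469), which encodes a small mucin-like secreted protein and lies in the same region as *Mucl2*, did not follow the libraries high in *Pip*. It was at 3.57, 2.94, 2.74, 6.54 and 4.55 CPM in PBS replicates 1 to 5, at 1.84, 0.655, 0.589, 1.61 and 3.61 CPM in the isotype group, and at 5.07, 8.29, 6.56, 3.36 and 3.76 CPM in the anti–IL-4Rα group. Of the 5 isotype libraries 4 lay below every library of the other groups, and isotype replicate 5 lay among them. Group means were 4.07 ± 1.55 CPM for PBS, 1.66 ± 1.22 CPM for isotype and 5.41 ± 2.04 CPM for anti–IL-4Rα (SD, n = 5 each). Anti–IL-4Rα against isotype gave 1.72 on the log2 scale (SE 0.45, adjusted p = 0.0259 by edgeR), with p = 0.0159 in a two-sided exact permutation test on log2 CPM. Isotype against PBS gave −1.30 (SE 0.45, adjusted p = 0.0593), with p = 0.0317 in the exact permutation test. Anti–IL-4Rα and PBS differed by 0.42 (SE 0.43, adjusted p = 0.612). Its counts were 35 to 550 per library, and leaving out any of 4 libraries (isotype replicates 2 and 3, anti–IL-4Rα replicates 1 and 2) lost the call, with an adjusted p of at most 0.0621.

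*Scgb1a1* (ENSMUSG00000024653, chromosome 19, 9083636 to 9087958), the gene of uteroglobin, the secretory protein of airway club cells, also did not follow the libraries high in *Pip*. It was at 15.4, 9.72, 23.6, 18.9 and 9.58 CPM in PBS replicates 1 to 5, at 18.4, 4.35, 7.07, 12.7 and 9.44 CPM in the isotype group and at 16.9, 15.4, 14.7, 13.8 and 12.4 CPM in the anti–IL-4Rα group. The groups overlapped, and the log2 fold changes were −0.57 (SE 0.33, adjusted p = 0.250) for isotype against PBS and 0.50 (SE 0.33, adjusted p = 0.308) for anti–IL-4Rα against isotype. *Scgb3a1* (ENSMUSG00000064057), another airway secretoglobin, had 6, 7, 6, 2 and 8 counts in the PBS libraries, 5, 7, 3, 7 and 9 in the isotype libraries and 6, 1, 7, 4 and 7 in the anti–IL-4Rα libraries, which is at most 0.165 CPM, and was not tested. The low *Scgb2b17*, *Scgb2b27*, *Scgb2b15* and *Scgb2b4-ps*, each at a mean under 0.4 CPM, had log2 fold changes of 0.88, 0.55, −0.43 and −0.01 for anti–IL-4Rα against isotype, and none was called.

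**Figure D5:**
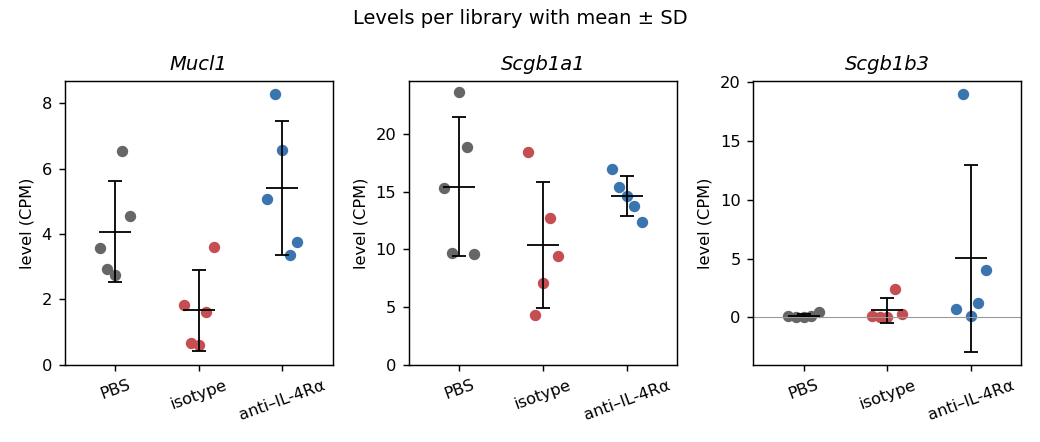
Levels (CPM, axes including 0) of Mucl1, Scgb1a1 and Scgb1b3 in the 5 libraries of each group (points), with mean and SD (bars). Mucl1 averages 4.07, 1.66 and 5.41 CPM in the PBS, isotype and anti–IL-4Rα groups, Scgb1a1 stays between 4.35 and 23.6 CPM, and Scgb1b3 is led by anti–IL-4Rα replicate 2 at 19.0 CPM.

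Other secretory genes of tears and exocrine glands, a list of 24 of which 15 were tested, were read beside the members; 7 of the 24 are also on the lacrimal acinar list. For anti–IL-4Rα against isotype 3 rose, beside 6.73% of all genes tested, and 1 fell, beside 8.13%. *Lyz1*, a lysozyme, rose (log2 fold change 1.62, SE 0.28, adjusted p = 0.00534), as did *Pigr*, the receptor that carries IgA into secretions (1.38, SE 0.37, adjusted p = 0.0291) and *Amy1*, an amylase (0.74, SE 0.14, adjusted p = 0.00763), while *Klk1*, a tissue kallikrein, changed by −1.69 (SE 0.35, adjusted p = 0.0114). For isotype against PBS 2 rose (*Klk1* and *Wfdc12*), beside 9.53%, and 1 fell (*Amy1*), beside 7.49%, and for anti–IL-4Rα against PBS 4 rose (*Klk1*, *Wfdc12*, *Pigr* and *Lyz2*), beside 2.28%, and 0 fell, beside 1.44%. Genes that follow *Pip* had folds and errors like those of the tear protein genes for anti–IL-4Rα against isotype: *Pip* 2.4999 (SE 1.91, adjusted p = 0.374), *Lpo*, lactoperoxidase, 2.72 (SE 1.58, adjusted p = 0.243), *Mup4*, a lipocalin, 2.39 (SE 1.60, adjusted p = 0.308) and *Bhlha15*, a transcription factor of secretory acinar cells, 2.70 (SE 1.33, adjusted p = 0.174). They were named for following *Pip*, so the likeness comes with that choice. Medians over whole lists were lower, 1.91 for the 8 acinar markers tested and 1.34 for the 15 secretory genes tested. Of the 8 lacrimal acinar markers tested, *Aqp5*, a water channel, was called: it rose for anti–IL-4Rα against isotype (0.48, SE 0.15, adjusted p = 0.0444) and against PBS (0.61, SE 0.15, adjusted p = 0.0398). The other 7, *Pip*, *Lpo* and *Bhlha15* among them, were not called in any of the 3 comparisons.

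The upstream sequences of the leading genes of 3 families are shown because these genes moved together over the libraries; they were chosen after their values were seen. RefSeq's table for GRCm38.p6 held a promoter for 50 of the 91 genes, each from 250 bases before to 50 bases after a start; the 250 bases before the start are printed, with TATAAA in capitals on either strand. The *Obp1a* stretch is chrX:78091375-78091624, that of *Scgb1b2* chr7:31291817-31292066 and that of *Mucl2* chr15:103899313-103899562, all on the minus strand.
Obp1a: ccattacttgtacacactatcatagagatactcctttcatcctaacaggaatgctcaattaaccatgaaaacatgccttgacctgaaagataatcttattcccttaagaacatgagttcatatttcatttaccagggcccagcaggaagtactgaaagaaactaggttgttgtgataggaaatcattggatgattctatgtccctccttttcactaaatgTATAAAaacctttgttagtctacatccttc
Scgb1b2: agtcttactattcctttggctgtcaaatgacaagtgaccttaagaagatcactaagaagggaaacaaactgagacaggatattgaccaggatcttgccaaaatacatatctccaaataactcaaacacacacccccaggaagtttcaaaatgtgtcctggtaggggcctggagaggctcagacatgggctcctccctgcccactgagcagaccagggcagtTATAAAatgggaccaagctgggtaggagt
Mucl2: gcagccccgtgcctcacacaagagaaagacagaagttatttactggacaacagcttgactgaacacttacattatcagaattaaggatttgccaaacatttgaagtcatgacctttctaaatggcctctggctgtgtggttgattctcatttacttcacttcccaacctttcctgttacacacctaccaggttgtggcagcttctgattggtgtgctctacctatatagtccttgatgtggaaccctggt
*Obp1a* holds TATAAA starting 30 bases before the start and *Scgb1b2* 29 bases before, and *Mucl2* holds none in this window. TATAAA on either strand was found in 29 of the 50 promoters (58.0%) and in 13.6% of all 32851 promoters of the same length. Among the genes named, 11 of the 22 with a promoter held it. On the strand of the gene and within the 50 bases before the start, it was in 3 of these 22. The same was true of 14 of the 50 promoters and 2.73% of all promoters. The 29 include related *Scgb2b* genes, which are not separate observations. Some of these, such as *Scgb2b6*, *Scgb2b10* and *Scgb2b30*, had 0 counts in every library. The share of 58.0% therefore does not describe the genes that moved together. A match is a description of these letters.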

How the data were processed

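RNA was extracted from conjunctiva, polyA selected and made into stranded libraries. The authors mapped reads uniquely to mouse B38 with the Ensembl R100 gene model in Array Studio and deposited estimated counts per gene, with fractional values in 6222 to 8005 genes per library; these were rounded to whole numbers. Library totals were 48622246 to 87745024. Of 55487 identifiers 55141 matched a symbol. Genes with 10 counts or more in 5 or more libraries entered edgeR 4.0.16 (TMM factors, quasi-likelihood, 1 model of 3 groups, two-sided, Benjamini-Hochberg over 19006 genes). SE is the size of the log2 fold change over the square root of F. The covariate was the mean log2 CPM (prior count 2) of 8 acinar genes. Alternatives were DESeq2 1.42.0, limma 3.58.1 (voom, and log2(FPKM + 1)), other scalings, filters and left-out libraries. The methods mention 2 outliers without saying which; all 15 libraries were kept. The scripts were tested on simulated data.

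The members and the gene lists were chosen with earlier results of these data known. Genes named were those with a mean of at least 1 CPM, those called, and the highest per kilobase of each family; of those, the 2 highest in mean CPM of each family were given in every library, and the others named were picked after their values were seen. Libraries are labelled as separate samples, and p-values measure the spread between them. Samples of a group could not be assigned to further batches from the labels.

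Coding sequences of the secretoglobin copies are not reported here.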

Additional observations from a re-analysis of the deposited data

Results flagged for a closer look

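Within groups of 5, the gap of a library to the nearest other library was taken relative to the group's range. A library was marked where this was above Dixon's 95% critical value for 5 samples. Chance does this in about 1 of 20 groups of normally distributed values. Levels in CPM spanned orders of magnitude within a group, so that rate does not hold for the marks in CPM. In the PBS group replicate 5 stood above the others in 26 of the 30 genes named, which follow the same libraries and are not separate observations. For the 13 of higher level its values in CPM were *Mucl2* (23948.5), *Obp1a* (23999.8), *Scgb1b2* (12599.5), *Obp1b* (7483), *Scgb2b2* (10918.3), *Scgb2b24* (2989), *Esp15* (2999), *Esp6* (1748), *Scgb1b20* (386), *Esp18* (709), *Scgb2b20* (309), *Scgb2a2* (683), *Scgb1b7* (182).

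The other 13, in CPM, were *Esp31* (452), *Lcn11* (249), *Scgb2b7* (118), *Esp16* (271), *Esp36* (64.9), *Esp3* (58.2), *Esp4* (44.7), *Scgb1b24* (27.8), *Esp34* (17.3), *Esp23* (14.9), *Scgb1b3* (0.422), *Esp24* (4.22), *Esp38* (2.30). The acinar marker sum of that library was 3814 CPM, the highest of the PBS group.

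In the isotype group replicate 4 stood apart, in CPM, for *Scgb2b20* (729), *Scgb1b7* (586), *Scgb2b7* (382), *Scgb1b3* (2.41), and in the anti–IL-4Rα group replicate 2 for *Scgb1b3* (19.0). On the log2 scale low libraries stood apart instead, and no PBS library was marked. Anti–IL-4Rα replicate 3 was lowest in 25 of these genes and isotype replicate 2 in 13. Any cause of these values was not tested.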

How the results depend on the processing

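*Mucl1* decided most of the counts. For isotype against PBS, 1 member was called lower with DESeq2, voom, log2(FPKM + 1), the acinar score as covariate or an adjusted p under 0.1. Over all 19006 genes, DESeq2 called 1807 lower, voom 1746 and the covariate fit 2071, and log2(FPKM + 1) called 1704 of 18984. With 1 library left out, 0 to 1 member was called lower, beside 768 to 1737 of all genes (*Mucl1* −1.81 to −1.07, called without isotype replicate 5). For anti–IL-4Rα against isotype, 2 were called higher with DESeq2 (1913 of all 19006 genes), without a filter (686 of 33025) or at an adjusted p under 0.1. None was called higher with only both groups compared (169 of 18570 genes), with the covariate (111 of 19006) or without the 4 libraries low in *Pip* (1413 of 18544). The range was 0 to 2 with 1 library left out, beside 256 to 2112 of all genes. It was 0 to 3 with a pair left out, beside 22 to 2293 of all genes. *Mucl1* then ran from 1.502 to 2.23 and from 1.30 to 2.35. Against PBS, 2 were called higher with DESeq2 (1238 of all 19006 genes), 4 with voom (1387 of 19006) and 1 at an adjusted p under 0.1. With 1 library left out, 0 to 2 were called higher, beside 37 to 1301 of all genes. With voom 1 was called lower, beside 931 of 19006 genes.

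With the score as covariate, log2 fold changes of anti–IL-4Rα against isotype changed sign for *Mucl2* (−0.39), *Obp1a* (−0.59), *Obp1b* (−0.16), *Scgb1b2* (−0.58), *Scgb1b20* (−0.72), *Scgb2b2* (−0.69), *Scgb2b24* (−0.47), *Esp15* (−0.60), *Esp6* (−0.19) and *Lcn11* (−0.98); the cause was not tested. With 1 library left out, isotype against PBS ran from −0.088 (without isotype replicate 4) to 3.53 for *Scgb1b7*.

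Replicate numbers were not taken to pair the samples. Correlations of same-numbered libraries ran from −0.385 to 0.454 and were not set against those of differently numbered libraries, so they do not settle whether samples were paired. With a replicate block, 1 member (*Mucl1*, 1.95, adjusted p = 0.0415 by edgeR) was called higher for anti–IL-4Rα against isotype, beside 824 of 19006 genes, and no other call changed.

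The SE of the abundant genes, up to 2.07 on the log2 scale, reflects the spread between libraries of a group. Levels under 1 CPM rest on few counts.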
